A study of Mus musculus with 2 samples.

Results

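The receptors for the colony-stimulating factors and for FLT3 ligand were followed across the leukocytes of 2 melanomas. The 6 genes Csf1r, Flt3, Csf2ra, Csf2rb, Csf2rb2 and Csf3r were taken by symbol from the deposited matrix, which held all 6 among its 12584 genes. Both tumours came from YUMM3.3, a mouse melanoma line with an activating Braf mutation and loss of Cdkn2a, grown in mice of the C57BL/6 strain. The record of the series gives day 12 after injection for their removal, whereas a different day is stated in the methods of the paper. The NTT tumour came from the therapy-naive line, and the RTT tumour came from a derivative of that line kept in a BRAF inhibitor until it was resistant. Live CD45+ cells were sorted from 1 tumour of each kind and sequenced as 1 library each, so the line, the mouse, the sort and the library cannot be told apart in any comparison between NTT and RTT. The NTT library held 2975 cells with a median of 5398 unique molecular identifiers (UMIs, each standing for 1 captured transcript), and the RTT library held 4840 cells with a median of 8336. A UMI for Ptprc, which encodes CD45, was found in 95.8% of NTT and 92.6% of RTT cells. The libraries shared 7 barcode sequences.

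Colony-stimulating factors are cytokines that sustain myeloid cells and direct their production. CSF1R, bound by CSF1 and IL-34, is the receptor tyrosine kinase on which most monocytes and tissue macrophages depend, and the related kinase FLT3 supports dendritic cells and their precursors. The receptor for GM-CSF pairs a ligand-specific alpha chain, encoded by Csf2ra, with the signalling beta chain, encoded by Csf2rb, which is also used by the receptors for IL-3 and IL-5. Mice carry a further beta chain gene, Csf2rb2, whose product serves IL-3. Csf3r encodes the G-CSF receptor, the main growth factor receptor of neutrophils.

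In the mouse genome (GRCm38, GENCODE M21), the genes other than Csf1r were placed as follows. Csf3r was annotated at chr4:126024550-126044440 on the plus strand, Flt3 at chr5:147330741-147400489 on the minus strand and Csf2ra at chr19:61223957-61228429 on the minus strand. Csf2rb2 (chr15:78282507-78305721, minus strand) and Csf2rb (chr15:78325752-78353847, plus strand) stand back to back, 20030 bases apart. Apart from microRNA genes, no other gene overlapped any of the 6 on its own strand. The beta chain genes are near copies of each other. Below are the last 90 coding bases of Csf2rb2 before the stop codon and the coding stretch of Csf2rb that matches them best. They are a chosen best match and not a mean over the coding sequence (GENCODE M21 transcripts, chr15:78349039-78349128 on the plus strand and chr15:78284320-78284409 on the minus strand). Of 90 coding bases, 84 were alike, and the 6 that differed are in capitals.
Csf2rb: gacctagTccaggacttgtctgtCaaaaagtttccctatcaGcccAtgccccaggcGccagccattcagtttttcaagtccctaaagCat
Csf2rb2: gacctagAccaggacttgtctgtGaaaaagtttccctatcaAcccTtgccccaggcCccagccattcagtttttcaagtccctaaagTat
Reads of this assay come from the 3′ ends of transcripts, and there the genes part. Of the 4675 stretches of 90 bases in the Csf2rb transcript, 394 (8.43%) also occurred in that of Csf2rb2, but none of the 411 within its last 500 bases did. Reads that fell further upstream could still be shared, so the values of these 2 genes carry that uncertainty.

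Upstream sequence was held for 4 of the 6 genes (RefSeq, GRCm38.p6), and 3 windows are shown for the matches they hold or lack. That of Csf3r is not printed because 109 of its 250 bases lie in an exon of the GENCODE annotation, which starts the gene further upstream than RefSeq. The 250 bases before the start site were searched on both strands for GAGGAA, the core of many sites for PU.1, the myeloid transcription factor encoded by Spi1. Matches are in capitals, and a match on the other strand reads TTCCTC. The windows are chr19:61228419-61228668 on the minus strand for Csf2ra, chr15:78305722-78305971 on the minus strand for Csf2rb2 and chr5:147400490-147400739 on the minus strand for Flt3.
Csf2ra: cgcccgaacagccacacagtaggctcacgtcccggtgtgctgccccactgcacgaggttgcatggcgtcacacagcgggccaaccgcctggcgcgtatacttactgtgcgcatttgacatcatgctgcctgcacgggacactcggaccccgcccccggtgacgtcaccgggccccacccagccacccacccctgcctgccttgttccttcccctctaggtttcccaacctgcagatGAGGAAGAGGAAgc
Csf2rb2: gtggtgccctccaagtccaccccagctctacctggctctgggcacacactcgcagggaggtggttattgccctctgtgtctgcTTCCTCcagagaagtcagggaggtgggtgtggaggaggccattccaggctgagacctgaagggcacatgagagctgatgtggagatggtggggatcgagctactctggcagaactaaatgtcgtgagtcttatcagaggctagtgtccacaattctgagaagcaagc
Flt3: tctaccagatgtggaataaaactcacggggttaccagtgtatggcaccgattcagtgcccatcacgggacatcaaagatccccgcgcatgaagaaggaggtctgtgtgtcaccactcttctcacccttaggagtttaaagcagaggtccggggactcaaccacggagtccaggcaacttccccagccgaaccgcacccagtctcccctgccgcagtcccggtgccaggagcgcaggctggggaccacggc
Csf2ra held 2 matches, beginning 14 and 8 bases before the start, and Csf2rb2 held 1, beginning 167 bases before it. Csf3r held 1 match at 86 bases, and Flt3 held none. By the GENCODE annotation 11 bases of the Csf2ra window are exonic too, so the Csf2ra match at 8 bases and the Csf3r match lie inside the annotated gene, and the Csf2ra match at 14 bases reaches into it. That motif occurred in 23.3% of all 32851 upstream windows of this length, and a match is a description of the sequence and not a binding site.

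Over all cells, the receptor genes differed in direction. Csf1r and Csf2ra were higher in the RTT library, and Csf2rb, Csf2rb2, Csf3r and Flt3 were lower. Levels are given in CPM, the UMIs of a gene summed over cells and scaled by all UMIs of those cells. Intervals are exact 95% Poisson intervals of levels, Clopper-Pearson intervals of shares and binomial intervals of ratios. They stand for counting error only, since cells of 1 library are not replicates and no test between the tumours was possible. The level of Csf1r was 435 CPM in NTT and 767 CPM in RTT, a log2 ratio of 0.82 (0.78 to 0.85). That of Csf2ra was 164 CPM in NTT and 230 CPM in RTT, a log2 ratio of 0.49 (0.43 to 0.55). Both values lay above the median log2 ratio of all 8220 genes with at least 500 UMIs, which was 0.10. Csf2rb went from 294 to 145 CPM, a log2 ratio of -1.02 (-1.07 to -0.97), and Csf2rb2 from 76.9 to 46.8 CPM, a log2 ratio of -0.72 (-0.81 to -0.62). Csf3r went from 90.1 to 21.9 CPM, a log2 ratio of -2.04 (-2.16 to -1.93), and Flt3 from 27.1 to 5.23 CPM, a log2 ratio of -2.37 (-2.60 to -2.15). Hence 3 of the 6 genes were at least 2-fold lower in RTT and none was at least 2-fold higher, where 9.6% of all genes were lower and 8.18% were higher by that measure.

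**Figure D1:**
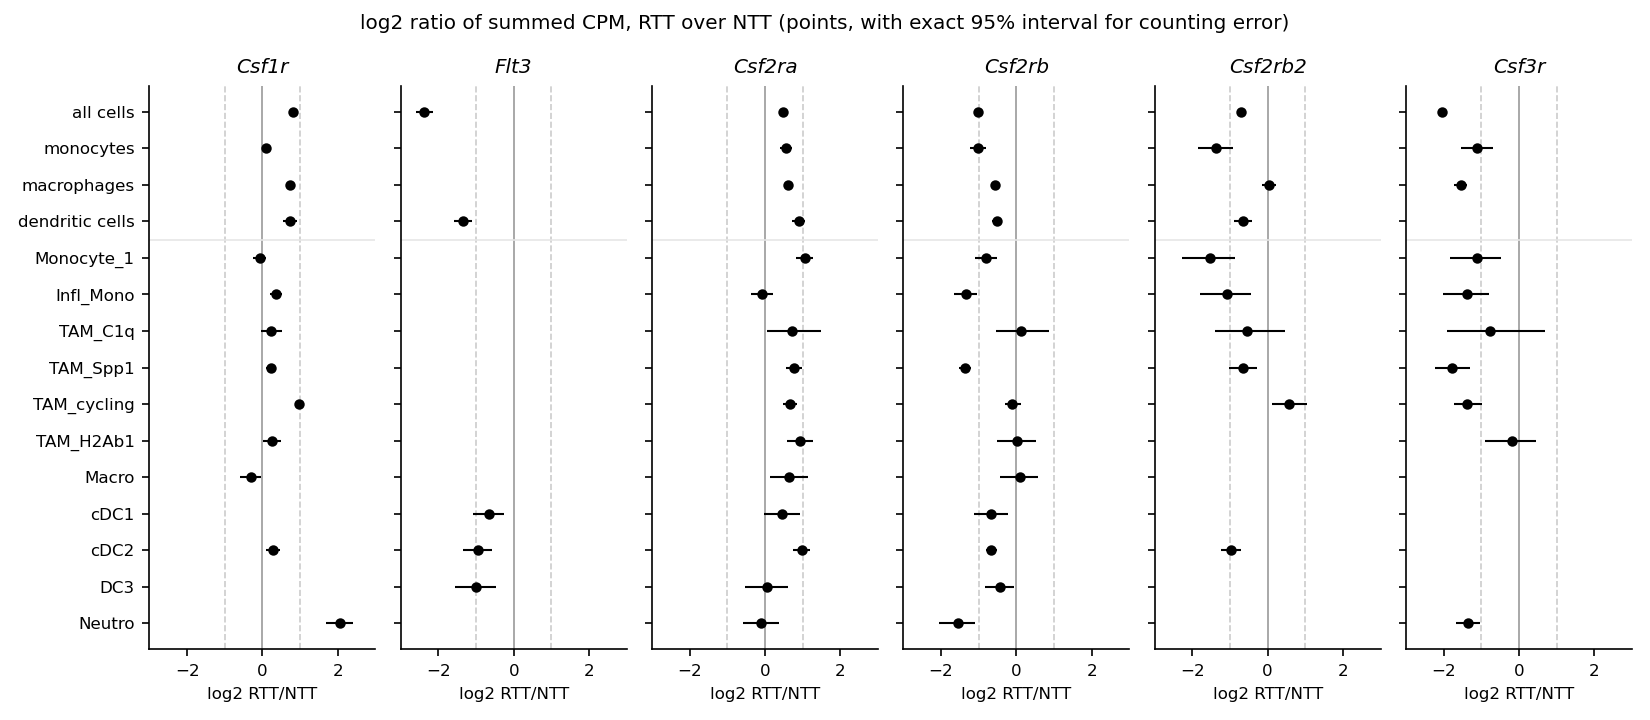
log2 ratio of summed CPM, RTT over NTT, for each receptor gene over all cells, in 3 classes and in single populations (points, with exact 95% intervals for counting error). Only values past the UMI minimum are drawn, and dashed lines mark a 2-fold difference. Csf2ra lies at or above 0 nearly throughout, with -0.07 in Infl_Mono and -0.10 in Neutro as exceptions, and Csf3r and Flt3 lie below 0 in every comparison drawn, although Csf3r in Neutro was 0.48 without cells carrying C1qa.

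The libraries differed in their makeup, so each receptor was followed within the 16 populations named by the authors. Monocytes (Monocyte_1, Infl_Mono and Monocyte_3) made up 54.3% of NTT and 4.11% of RTT cells, and macrophages, among them the tumour-associated macrophage (TAM) populations, 19.6% and 82.8%. The dendritic cell populations cDC1, cDC2 and DC3 made up 16.5% and 10.9%. Populations of under 15 cells in a library were left out of levels, which removed Monocyte_3 and Mast in both libraries, Myofibrobl in NTT and Ctsk_Macro in NTT, where there was no such cell. TAM_C1q held only 17 cells in NTT against 2001 in RTT.

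**Figure D2:**
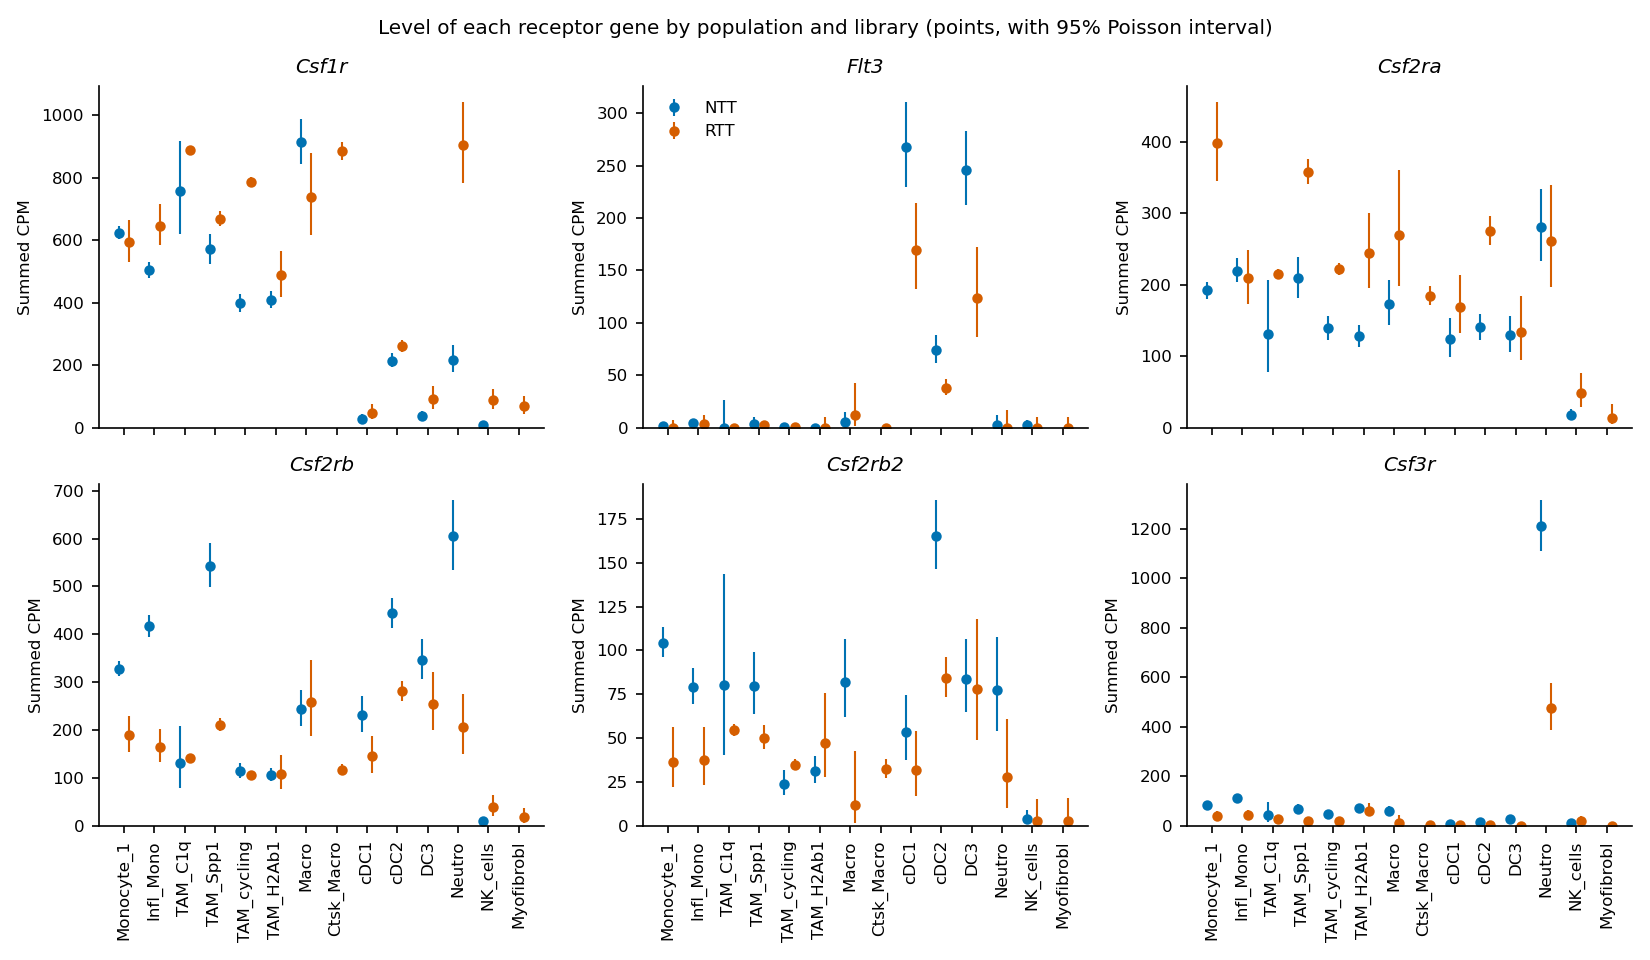
Summed CPM of each receptor gene (vertical axes, linear and separate for each gene) in each population of at least 15 cells, with NTT in blue and RTT in orange. Points carry 95% Poisson intervals. Csf1r spans monocytes and macrophages, Flt3 stands out in the 3 dendritic cell populations, and Csf3r reached 1212 CPM in NTT and 476 CPM in RTT in the population labelled Neutro.

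Csf1r, annotated at chr18:61100598-61132149 on the plus strand, had its highest levels in monocytes and macrophages in NTT and in macrophages and Neutro in RTT. In the NTT library its level was highest in Macro (913 CPM, 843 to 987) and TAM_C1q (758 CPM, 619 to 918), which were not distinguished, and then in Monocyte_1 (623 CPM), TAM_Spp1 (571 CPM) and Infl_Mono (505 CPM). TAM_H2Ab1 (410 CPM) and TAM_cycling (399 CPM) followed and were not distinguished from each other. In the RTT library TAM_C1q (889 CPM, 876 to 903) and Ctsk_Macro (885 CPM, 857 to 915) were not distinguished from each other or from Neutro (905 CPM), and lay above TAM_cycling (786 CPM) and TAM_Spp1 (670 CPM). Ctsk_Macro, found only among RTT cells and with a summed level of 5 osteoclast-type markers such as Ctsk of 48901 CPM against 174 CPM in RTT TAM_C1q, was not distinguished from TAM_C1q in Csf1r. Among dendritic cells Csf1r was seen mainly in cDC2, at 215 CPM in NTT and 261 CPM in RTT. The cells labelled NK_cells, called NK cells here, carried 5 NK markers at a summed 6312 CPM in NTT and 3393 CPM in RTT. They also carried 4 T cell markers at 4212 and 3059 CPM, so T cells were not separated from NK cells under this label. These cells, which should lack Csf1r, showed 10.6 CPM in NTT and 89.5 CPM in RTT. The RTT values of cDC1 (48.4 CPM) and DC3 (91.8 CPM) lay below or beside that background and are not read as expression. Of the RTT NK cells 4 of 51, and of the RTT DC3 cells 6 of 57, carried the macrophage gene C1qa at 1000 CPM or more. Without those cells Csf1r was 39.9 CPM in NK cells and 22.2 CPM in DC3. In NTT, cDC1 (27.5 CPM, 16.3 to 43.5) and DC3 (38.0 CPM, 25.7 to 54.3) lay above NK cells, from 18 and 30 UMIs. Without NTT cells carrying C1qa at that level, cDC1 was at 16.3 CPM (7.84 to 30.1) and DC3 at 33.8 CPM (22.1 to 49.6). The NK cells of NTT, none of which carried it, had an interval of 5.77 to 17.7 CPM.

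Between the tumours, Csf1r in TAM_cycling went from 399 to 786 CPM, a log2 ratio of 0.98 (0.87 to 1.09). The ratio in Neutro was larger, at 2.05 (1.69 to 2.41), and is taken up with Csf3r. It was 0.36 in Infl_Mono (0.19 to 0.52), 0.28 in cDC2 (0.09 to 0.47), 0.25 in TAM_H2Ab1 (0.01 to 0.49) and 0.23 in TAM_Spp1 (0.10 to 0.36). Monocyte_1, with 623 and 596 CPM, gave -0.07 (-0.24 to 0.10), and Macro, with 913 and 739 CPM, gave -0.30 (-0.59 to -0.03). TAM_C1q, with 17 cells in NTT and 2001 in RTT, gave 0.23 (-0.05 to 0.52). Over all monocytes the log2 ratio was 0.10 (-0.01 to 0.22), and over all macrophages it was 0.73 (0.67 to 0.78). The pooled macrophage ratio was larger than that of each macrophage population compared except TAM_cycling. The mix of macrophage populations differed between the libraries, and Ctsk_Macro, at 885 CPM, was part of the RTT pool only. Of the Csf1r UMIs, 58.7% came from monocytes in NTT and 2.07% in RTT, whereas macrophages gave 35.0% in NTT and 95.1% in RTT.

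Flt3 was carried mainly by dendritic cells. They held 93.1% of its UMIs in NTT and 86.8% in RTT. In the NTT library its level was 268 CPM (229 to 310) in cDC1 and 246 CPM (213 to 283) in DC3, which were not distinguished, and 74.5 CPM in cDC2. DC3 is the population with the markers of mature dendritic cells such as Ccr7, whose summed level was 6825 CPM in NTT and 8882 CPM in RTT. In the RTT library the order was the same, with 169 CPM (132 to 214) in cDC1, 124 CPM (86.1 to 172) in DC3 and 38.3 CPM in cDC2. The highest value outside dendritic cells was 5.76 CPM in NTT and 11.7 CPM in RTT, both in Macro and from 4 and 2 UMIs. Each dendritic population had less Flt3 in RTT, with a log2 ratio of -0.66 in cDC1 (-1.08 to -0.25), -0.96 in cDC2 (-1.35 to -0.57) and -0.99 in DC3 (-1.56 to -0.47). Without cells carrying C1qa at 1000 CPM or more, the gap in DC3 was smaller, at 250 CPM (216 to 288) in NTT and 151 CPM (104 to 211) in RTT. Flt3 then stood at 273 and 166 CPM in cDC1 and at 74.7 and 40.1 CPM in cDC2. For dendritic cells together, the level went from 158 to 62.4 CPM, a log2 ratio of -1.34 (-1.58 to -1.10), past 2-fold, and the pooled ratio was larger than that of any of the 3 populations. cDC2 is the population with the least Flt3 of the 3, and it made up 279 of 492 dendritic cells in NTT and 413 of 526 in RTT.

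Csf2ra, the GM-CSF receptor alpha chain, was found in all myeloid populations. In NTT its level was highest in Neutro (280 CPM, 234 to 333). All other myeloid populations lay between 124 CPM in cDC1 and 220 CPM in Infl_Mono, with no pair of neighbours in that order distinguished. NK cells were at 18.1 CPM. In RTT the level was highest in Monocyte_1 (398 CPM, 346 to 455) and TAM_Spp1 (358 CPM, 340 to 376), which were not distinguished, and lowest of the myeloid populations in DC3 (134 CPM), with 48.8 CPM in NK cells. The log2 ratio was 1.05 in Monocyte_1 (0.83 to 1.26), from 192 to 398 CPM, and 0.97 in cDC2 (0.75 to 1.19), from 141 to 275 CPM. In macrophages it was 0.93 in TAM_H2Ab1 (0.57 to 1.28), 0.78 in TAM_Spp1 (0.57 to 0.99), 0.72 in TAM_C1q (0.06 to 1.47), 0.67 in TAM_cycling (0.49 to 0.86) and 0.64 in Macro (0.12 to 1.14). Infl_Mono, at 220 and 209 CPM, did not share this difference, with -0.07 (-0.36 to 0.20), and neither DC3 (0.05) nor cDC1 (0.45) had an interval clear of 0.

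Csf2rb, the beta chain that pairs with Csf2ra, took the opposite direction in several of the same populations. In TAM_Spp1, macrophages marked by osteopontin, Csf2rb went from 544 CPM (499 to 591) to 211 CPM (197 to 225), a log2 ratio of -1.37 (-1.52 to -1.21), while Csf2ra there went from 209 to 358 CPM. The cells under this label also differed in markers, since the summed level of 7 macrophage markers was 8062 CPM in NTT and 21991 CPM in RTT and that of 6 monocyte markers 7568 and 2978 CPM. In Monocyte_1 it went from 328 to 188 CPM, a log2 ratio of -0.80 (-1.11 to -0.51), and in cDC2 from 444 to 280 CPM, a log2 ratio of -0.66 (-0.81 to -0.51). In both of these populations Csf2ra was higher in RTT, as given above. Infl_Mono, at 220 and 209 CPM for Csf2ra, had -1.34 (-1.65 to -1.04), from 417 to 165 CPM. Its macrophage markers stood at 7838 and 34716 CPM and its monocyte markers at 15426 and 6113 CPM. In Monocyte_1 the macrophage markers stood at 18235 and 17147 CPM and the monocyte markers at 8747 and 5457 CPM. In cDC2 the macrophage markers stood at 793 and 1561 CPM and the monocyte markers at 7338 and 1297 CPM. The part of these markers in the differences of the receptor genes was not tested. The 2 chains parted less in other macrophages, since the log2 ratio of Csf2rb was -0.10 in TAM_cycling (-0.31 to 0.11), 0.02 in TAM_H2Ab1 (-0.51 to 0.52), 0.09 in Macro (-0.43 to 0.57) and 0.11 in TAM_C1q (-0.55 to 0.87). No difference in Csf2rb beyond counting error was detectable in these 4 populations. In cDC1 Csf2rb went from 231 to 145 CPM, a log2 ratio of -0.67 (-1.13 to -0.23). Neutro, with the highest NTT level, went from 605 to 205 CPM, a log2 ratio of -1.56 (-2.05 to -1.10). The Neutro cells with C1qa are taken up with Csf3r. In DC3 the log2 ratio was -0.44 (-0.84 to -0.07), and 1 NTT cell held 23.4% of the Csf2rb UMIs of that population. Without that cell the DC3 value was -0.11 (-0.52 to 0.28).

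Csf2rb2 was highest in cDC2 in both tumours, at 165 CPM (147 to 186) in NTT and 84.5 CPM (73.6 to 96.5) in RTT, a log2 ratio of -0.97 (-1.23 to -0.71). Its next level in NTT was 104 CPM in Monocyte_1, clearly below cDC2. In RTT cDC2 was followed by DC3 at 77.7 CPM (48.7 to 118), from which it was not distinguished. Monocyte_1 went from 104 to 36.2 CPM, a log2 ratio of -1.53 (-2.27 to -0.87), and Infl_Mono from 79.2 to 37.4 CPM, a log2 ratio of -1.08 (-1.78 to -0.45). TAM_Spp1 gave -0.67 (-1.04 to -0.28). TAM_cycling went the other way, from 23.7 to 34.8 CPM, a log2 ratio of 0.55 (0.11 to 1.03). Over 26 combinations of population and library, log2(CPM + 10) of Csf2rb2 and Csf2rb had a Pearson correlation of 0.83, the highest of the 15 pairs among the 6 genes. Those points share libraries and have unequal depth.

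Csf3r was highest in Neutro, the label for neutrophils, on which the G-CSF receptor is best known. In NTT its level was 1212 CPM (1112 to 1317) in Neutro, 110 CPM in Infl_Mono and 82.3 CPM in Monocyte_1, with NK cells at 9.04 CPM. In RTT it was 476 CPM (388 to 578) in Neutro, with TAM_H2Ab1 next at 61.1 CPM and NK cells at 19.0 CPM. Neutro held 31.0% of the Csf3r UMIs in NTT and 10.4% in RTT. As pooled classes, monocytes and macrophages were lower in RTT, with a log2 ratio of -1.10 in monocytes (-1.55 to -0.69) and -1.55 in macrophages (-1.73 to -1.37). Not every macrophage population was clear of 0. TAM_H2Ab1, at 69.8 and 61.1 CPM, gave -0.19 (-0.91 to 0.46), and TAM_C1q gave -0.77 (-1.91 to 0.68). The log2 ratio was -1.77 in TAM_Spp1 (-2.24 to -1.30), which stood at 20.2 CPM in RTT. TAM_cycling went from 46.4 to 18.0 CPM, a log2 ratio of -1.37 (-1.73 to -0.99), and Infl_Mono from 110 to 42.5 CPM, a log2 ratio of -1.37 (-2.02 to -0.78). The RTT values of TAM_Spp1 and TAM_cycling were not distinguished from the 19.0 CPM of NK cells, but all 7 UMIs behind that value were in 1 of the 51 cells, so it is a poor measure of background. Ctsk_Macro, found only in RTT and part of the pooled macrophages there, was at 2.95 CPM (1.52 to 5.15).

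The RTT cells labelled Neutro did not carry neutrophil markers uniformly. Of these 29 cells, 15 carried C1qa, a macrophage gene, at 1000 CPM or more, against 13 of 91 in NTT. The summed level of the 5 neutrophil markers fixed for the check was 82687 CPM in NTT and 18943 CPM in RTT, and that of 7 macrophage markers was 5462 and 41195 CPM. Across all RTT cells of this label Csf1r was 905 CPM, against 218 CPM in NTT, and the log2 ratio of Csf3r was -1.35 (-1.67 to -1.04). Without the cells with C1qa, Csf1r was 144 CPM (108 to 189) in 78 NTT cells and 137 CPM (44.6 to 321) in 14 RTT cells. Csf3r was then 1341 CPM (1225 to 1465) in NTT and 1868 CPM (1451 to 2368) in RTT, a log2 ratio of 0.48, so the higher Csf1r of RTT cells was not seen without those cells, and Csf3r had the other direction. The RTT value of Csf1r came from 5 UMIs, and no direction is read from it. Csf2ra was then 303 and 632 CPM and Csf2rb 641 and 549 CPM, the latter from 20 RTT UMIs.

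Within classes and populations, the receptor genes were counted by the same 2-fold measure. In monocytes 3 of the 5 receptor genes past the minimum of 200 UMIs were 2-fold lower (Csf2rb, Csf2rb2 and Csf3r), where 6.74% of 5326 genes were lower. In macrophages 1 of 5 was lower (Csf3r), where 6.18% of 8888 genes were. In dendritic cells 1 of 5 was lower (Flt3), where 7.56% of 4407 genes were. None was 2-fold higher in these 3 classes, where 2.97%, 4.61% and 4.83% of genes were. In single populations, with a minimum of 100 UMIs, Monocyte_1 had 2 of 5 receptor genes 2-fold lower, where 11.6% of genes were lower, and 1 higher (Csf2ra), where 3.1% were. Infl_Mono had 3 of 5 lower, where 9.64% of genes were. TAM_Spp1 had 2 of 5 lower, where 13.3% of genes were, and TAM_cycling 1 of 5, where 4.7% were. Neutro had 2 of 4 lower and 1 higher, where 25.2% and 24.8% of genes were. Left out of the class counts for too few UMIs were Flt3 in monocytes (23 in NTT and 2 in RTT) and in macrophages (9 and 29), and Csf3r in dendritic cells (50 and 11).

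The difference over all cells was split for each gene into a part from the differing shares of populations and a part from levels within populations, with the weights of both libraries averaged. For Csf1r, 199 of 332 CPM came from shares and 133 CPM from levels within populations. The largest single part was the 330 CPM that went with the larger share of TAM_C1q, and -161 CPM went with the smaller share of Monocyte_1. For Flt3, -14.1 of -21.9 CPM came from shares and -7.86 CPM from within. For Csf2ra the parts had opposite signs, with -26.5 CPM from shares and 92.8 CPM from within, and only the part within populations had the sign of the total. For Csf2rb the parts were -63.2 CPM from shares and -86.3 CPM within populations, and the latter was largest in TAM_Spp1 (-25.0 CPM) and Infl_Mono (-21.9 CPM). For Csf2rb2, -26.6 of -30.1 CPM came from within populations. Csf3r had -30.5 CPM from shares and -37.7 CPM within. Populations are weighted by their share of UMIs. Ctsk_Macro had no NTT cells, so its RTT level was used for both libraries under every weighting. Its whole part, 80.5 CPM for Csf1r, was therefore counted under shares. For Csf1r, Csf2rb, Csf3r and Flt3, which part was larger depended on the library whose levels weighted the shares. With NTT levels the part from shares and the part within populations were 155 and 177 CPM for Csf1r, -102 and -47.8 CPM for Csf2rb and -42.3 and -25.9 CPM for Csf3r, so the order turned for each. With RTT levels they were -24.7 and -125 CPM for Csf2rb and -9.90 and -12.0 CPM for Flt3, and for Flt3 the order turned. The part within populations was larger for Csf2ra and Csf2rb2 under all 3 weightings.

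**Figure D3:**
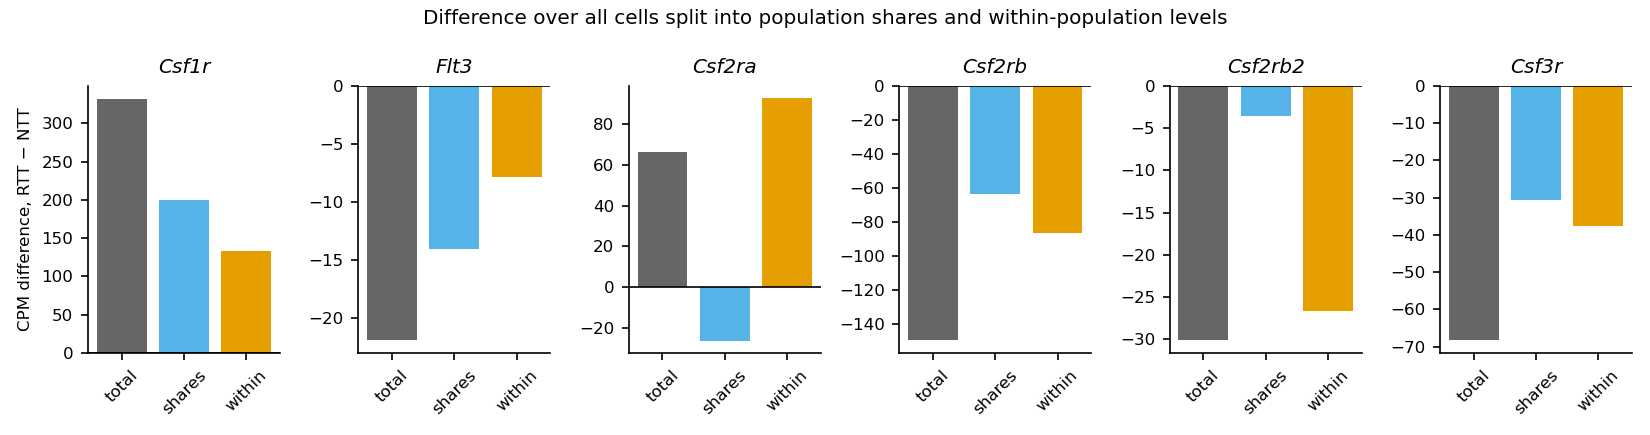
Difference in CPM over all cells (RTT minus NTT, vertical axes separate for each gene) in total, from shares of populations and from levels within populations. Bars start at 0. The part within populations is positive for Csf1r and Csf2ra and negative for the other 4 genes, and for Csf2ra alone the parts have opposite signs.

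Shares of cells with a UMI gave a similar picture. To remove depth, each cell was thinned to 2000 UMIs, which left out 107 NTT and 63 RTT cells. Csf1r was then found in 52.0% of NTT and 70.7% of RTT cells (73.4% and 91.3% unthinned), and in monocytes in 65.2% and 65.3%. Csf2ra was found in 30.7% of NTT monocytes (28.4 to 33.1) and 48.0% of RTT monocytes (40.8 to 55.2), and Csf2rb in 45.9% (43.4 to 48.4) and 28.1% (21.9 to 34.9). In cDC2, Csf2ra was found in 21.9% and 42.3% of cells and Csf2rb in 50.0% and 37.9%. NK cells gave the background, with 1.83% of NTT and 7.32% of RTT cells for Csf1r, 3.05% and 2.44% for Csf2ra and 1.83% and 7.32% for Csf2rb. Their median depth was 5359 and 3967 UMIs before thinning, against 4932 and 4845 in monocytes. Flt3 was found in 41.4% of NTT DC3 (32.8 to 50.4) and 25.0% of RTT DC3 (14.0 to 38.9). In cDC1 the thinned shares were 35.9% and 37.0% and the unthinned shares 87.2% and 64.3%, so no order is read from the shares there.

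**Figure D4:**
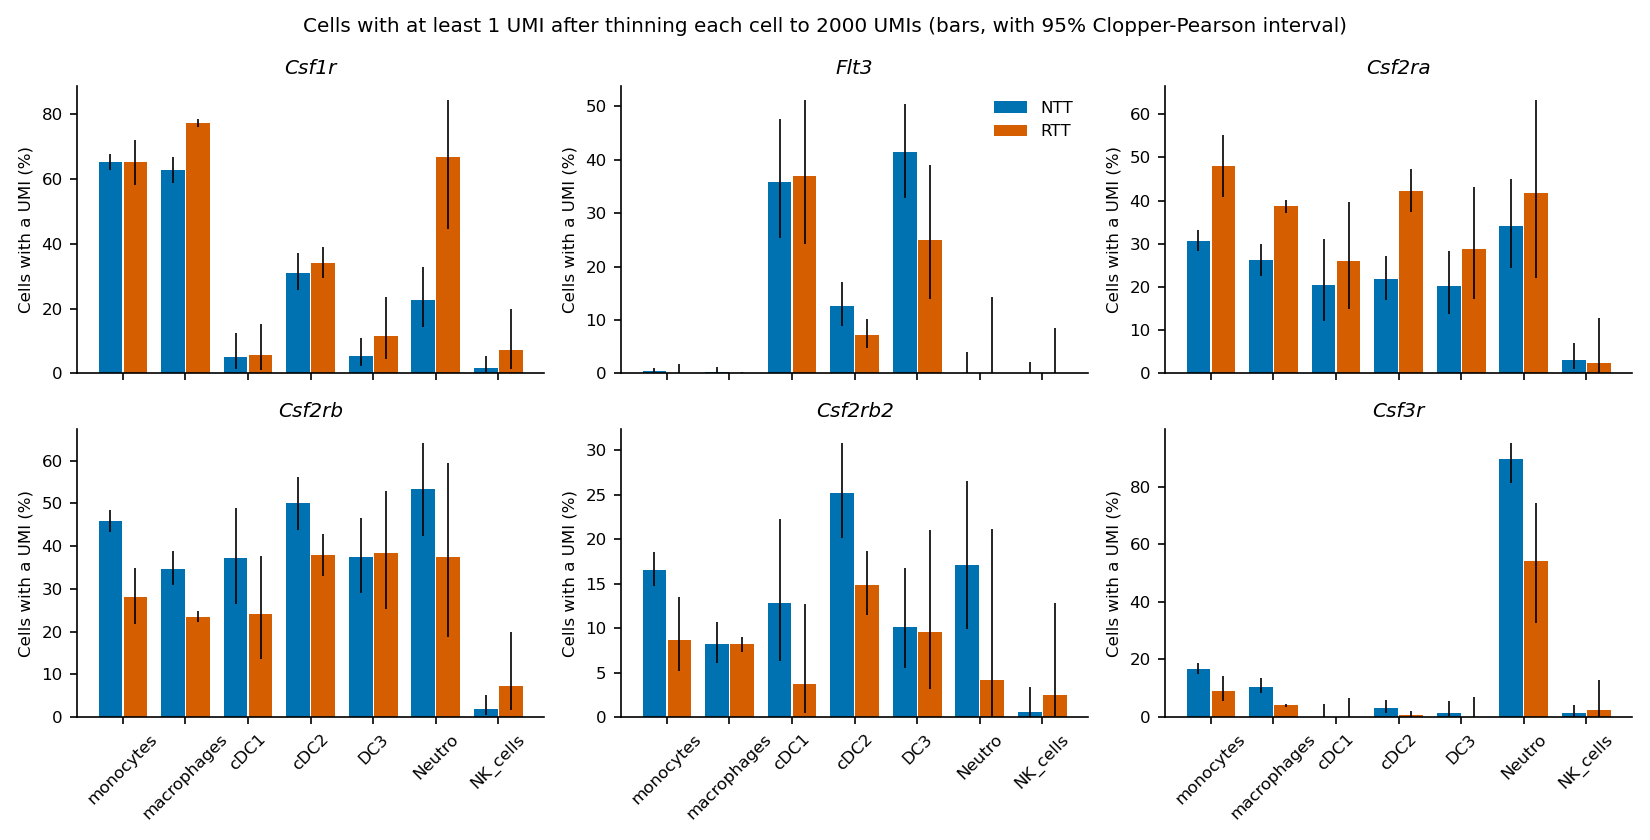
Percent of cells with at least 1 UMI of each receptor gene after each cell was thinned to 2000 UMIs, by class or population, with NTT in blue and RTT in orange. Bars start at 0 and carry 95% Clopper-Pearson intervals. Monocytes stand at 30.7% and 48.0% for Csf2ra and at 45.9% and 28.1% for Csf2rb.

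Receptors were also counted together in single thinned cells. Thinned cells hold few UMIs of each gene, so joint shares can be low through sparse capture. No joint share expected from the single shares was computed, so none is read as receptors avoiding or accompanying each other. Csf1r and Flt3 were found together in 0.523% of NTT and 0.23% of RTT cells, and in cDC2 in 3.33% of NTT and 1.98% of RTT cells. In cDC1, Flt3 without Csf1r was found in 34.6% and 37.0% of cells. Both GM-CSF receptor chains, Csf2ra and Csf2rb, were found in 13.8% of NTT and 15.3% of RTT monocytes, 10.1% and 9.14% of macrophages and 10.3% and 14.1% of dendritic cells. Both beta chain genes were found in 8.01% of NTT and 2.04% of RTT monocytes. No receptor of the 6 was found in 17.0% of NTT and 10.99% of RTT cells, and in 91.5% and 85.4% of NK cells. A cell carried a mean of 1.53 of the genes in NTT and 1.48 in RTT, and the highest means were those of Neutro, at 2.17 and 2.04.

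The genes whose levels were most like each receptor over the 26 combinations of population and library were named as a description, by Pearson correlation of log2(CPM + 10) among 8220 genes. For Csf1r these were Cd68 (0.93), a macrophage lysosomal glycoprotein, Hacd4, Clec4a2, Atp6ap1 and Itgam, the CD11b integrin chain (0.92). For Csf2ra they were Fes (0.93), a myeloid tyrosine kinase, Tyrobp (0.91), the DAP12 signalling adaptor, Spi1 (0.88), Btk and Sgk3. Those of Csf2rb began with Pira2 (0.86), a paired immunoglobulin-like receptor, and Prkcd (0.85), and those of Csf2rb2 with Pira2 (0.84) and Alpk1 (0.84). Csf3r was most like Gla (0.94) and Adipor1 (0.89), and Flt3 most like Btla (0.91), Cst3 (0.91), Syngr2 (0.90), Kit (0.90) and Mtmr4 (0.90).

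The ligands of these receptors were sparse among the sorted leukocytes. Csf1 had 461 UMIs in NTT and 126 in RTT, or 23.5 and 2.82 CPM, a log2 ratio of -3.06 (-3.35 to -2.77). In NTT it stood at 499 CPM in Neutro and 122 CPM in NK cells, and these populations held 49.0% and 35.1% of its UMIs. In RTT it stood at 210 CPM in Neutro and 32.5 CPM in NK cells. Flt3l, the FLT3 ligand, stood at 11.5 CPM in NTT against 6.71 CPM in RTT, a log2 ratio of -0.78 (-1.03 to -0.52), and was highest in NK cells, at 35.4 and 27.1 CPM. Csf2, which encodes GM-CSF, had 15 UMIs in NTT, of which 13 were in cells labelled NK_cells, and 1 in RTT. That label also carried T cell markers, so NK and T cells are not told apart as carriers of these ligands. Csf3 had 10 and 3 UMIs, and Il34 9 and 34, of which 22 were in the 24 RTT Myofibrobl cells. Cells outside the CD45+ gate, tumour cells among them, were not measured.

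Of 57 pathway genes listed, 56 were in the matrix and 47 passed 500 UMIs over all cells. Of these, 14 were at least 2-fold lower and 1 was at least 2-fold higher in RTT, against 9.6% and 8.18% of all genes, and their median log2 ratio was -0.50 against 0.10 for all genes. In monocytes 4 of 37 were lower and none higher, in macrophages 5 of 44 were lower and 1 higher, and in dendritic cells 6 of 39 were lower and 1 higher. Of all genes in these classes, 6.74%, 6.18% and 7.56% were lower and 2.97%, 4.61% and 4.83% were higher. Among related receptors, Kit, the stem cell factor receptor, went from 18.3 to 5.81 CPM (log2 ratio -1.65), and Il6st, the gp130 chain, from 34.4 to 13.5 CPM (-1.35), while Lifr went from 29.9 to 46.4 CPM (0.63). Kit, like Flt3, was carried by dendritic cells, at 132 CPM in NTT and 109 CPM in RTT cDC1 and at 62.1 and 55.9 CPM in cDC2. In dendritic cells its log2 ratio was -0.40 (-0.68 to -0.13), beside -1.34 for Flt3. Il3ra, the alpha chain that joins Csf2rb for IL-3, had too few UMIs for the count, with 7.08 and 4.67 CPM.

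Proximal signalling genes passed the minimum in all 20 cases. Over all cells 6 were 2-fold lower and none 2-fold higher, against 9.6% and 8.18% of all genes. Jak2, the kinase attached to the beta chain, went from 157 to 39.1 CPM, a log2 ratio between -2.09 and -1.92. Stat5a (-1.07), Stat5b (-1.09), Stat3 (-1.23), Cblb (-1.22) and Pik3cd (-1.03) were the other 5. Fewer were 2-fold lower within classes, 1 of 19 in monocytes, 2 of 20 in macrophages and 4 of 19 in dendritic cells. Of all genes in these classes, 6.74%, 6.18% and 7.56% were lower. Within classes, among others, Jak2 was 2-fold lower in monocytes (-1.37) and macrophages (-1.51), and Stat3 (-1.19), Stat5a (-1.07), Stat5b (-1.31) and Cblb (-1.23) in dendritic cells.

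Of the 11 feedback and target genes, 2 were 2-fold lower, namely Socs1 (log2 ratio -2.65), an inhibitor of JAK kinases, and Pim1 (-1.23). The share of all genes lower over all cells was 9.6%. A further 1 of the 11 was higher, where 8.18% of all genes were. It was Ccl17, a chemokine of dendritic cells that GM-CSF is known to raise, which went from 2.903 to 17.5 CPM (2.59). In cDC2 Ccl17 stood at 9.97 CPM in NTT and 211 CPM in RTT, and in DC3 at 38.0 and 615 CPM. Cish, a target of STAT5, stood at 14.7 and 45.4 CPM in cDC2, but was not called 2-fold higher over all cells or in a class. The median log2 ratio of the list was -0.52 over all cells and -0.10 in dendritic cells, against 0.10 and 0.06 for all genes. Signalling by GM-CSF was not tested. Socs2 was 2-fold higher in macrophages, from 3.86 to 20.2 CPM (2.39), while Socs1 (-1.96) and Ccnd2 (-1.04), a cyclin, were 2-fold lower there. That was 1 higher and 2 lower of 9 past the minimum in macrophages, where 4.61% and 6.18% of all genes were. In dendritic cells Socs1 (-1.11) was 2-fold lower, 1 of 8, where 7.56% of all genes were lower. Of 14 transcription factors 11 passed the minimum and 3 were 2-fold lower over all cells, against 9.6% of all genes. These were Irf8 (-1.07), Batf3 (-1.08) and Id2 (-1.10). Within classes, 2 of 10 transcription factors past the minimum were 2-fold lower in monocytes, 1 of 11 in macrophages and 0 of 10 in dendritic cells. Of all genes in these classes, 6.74%, 6.18% and 7.56% were lower. Hence none of these 3 genes was called lower within dendritic cells. Spi1 stood at 476 CPM in NTT and 481 CPM in RTT, a log2 ratio of 0.02 (-0.02 to 0.05).

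**Figure D5:**
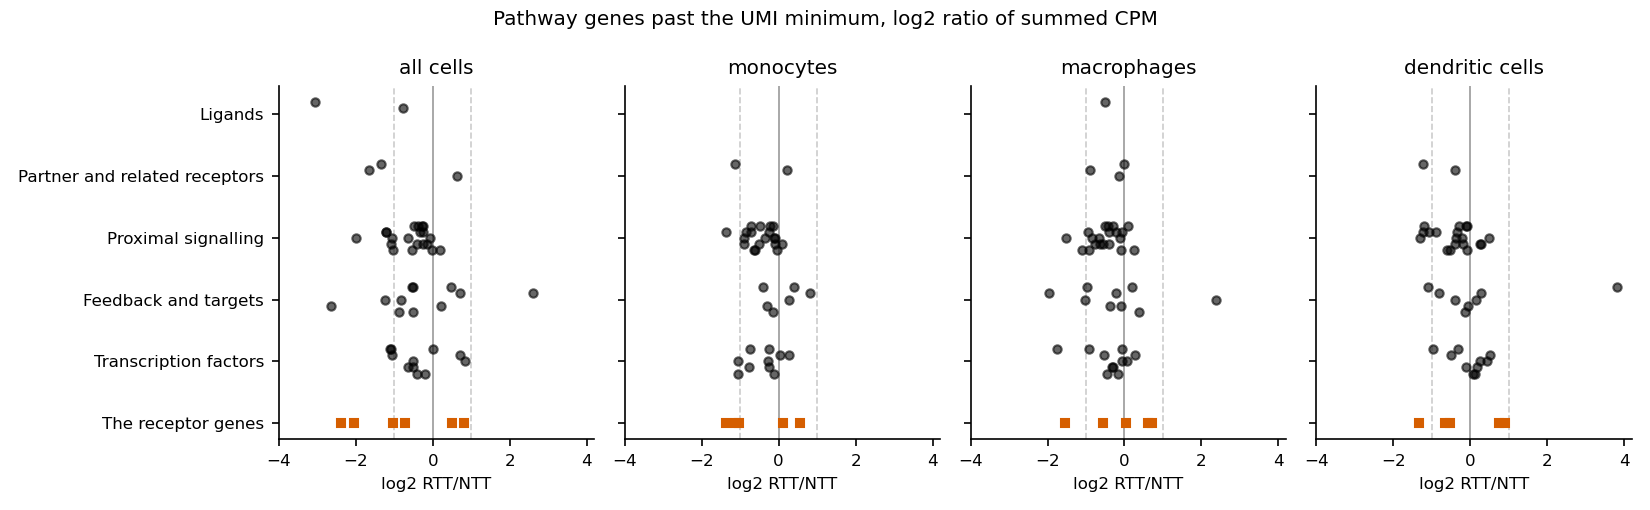
log2 ratio of summed CPM, RTT over NTT, of the pathway genes past the UMI minimum by list (black points), with the receptor genes below (orange squares), over all cells and in 3 classes. Dashed lines mark a 2-fold difference, and points are spread vertically within a list for legibility. Over all cells 14 pathway genes lie beyond the left dashed line and 1, Ccl17, beyond the right.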

How the data were processed

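Both libraries were made by droplet capture with 3′ chemistry from 10x Genomics, and per the labels and the study's methods reads were counted with Cell Ranger 6.1.1 on mm10. The authors kept cells on limits of detected genes and of mitochondrial and ribosomal reads, kept genes found in each of several experiments and dropped those of ribosomes and mitochondria. Raw UMI counts were deposited as a matrix, and a deposited table gives library and population of each cell. A gene removed by those filters cannot be seen, and CPM is relative to the genes that were left. Population names rest on clusters that used these genes. No doublets were removed here.

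Counts were summed per gene, population and library and scaled to CPM, so total depth was 19634099 UMIs in NTT and 44712071 in RTT. Intervals are exact at 95% (Poisson for levels, binomial for ratios, Clopper-Pearson for shares) and cover counting error only. With 1 library per group no test was made. A count of at least 500 UMIs over both libraries was required over all cells, 200 in a class and 100 in a population, and a difference of 2-fold was called. Levels were not compared between genes. The ratio script was checked on simulated counts. Python 3.11.15, numpy 2.4.6, scipy 1.17.1, R 4.3.3, edgeR 4.0.16 and DESeq2 1.42.0 were used, the last 2 for alternative scaling only. Named were all 6 receptor genes, a pathway list, and for each receptor the 5 genes of highest correlation. The members and lists were chosen with earlier results of these data known. An item of the pathway list is not reported by name here.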

Additional observations from a re-analysis of the deposited data

Results flagged for a closer look

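For 2 of the genes, populations with intervals clear of 0 lay on opposite sides between RTT and NTT. The log2 ratio of Csf1r was 0.98 in TAM_cycling and -0.30 in Macro, the latter from 26 RTT cells of which 1 held 17.5% of the Csf1r UMIs. That of Csf2rb2 was 0.55 in TAM_cycling and -1.53 in Monocyte_1. With 1 library per group these differences between populations were not tested.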

How the results depend on the processing

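The direction of all 6 log2 ratios over all cells was kept under the 7 alternatives tried. Under the mean of per-cell CPM the log2 ratio was 0.68 for Csf1r, -1.11 for Csf2rb, -0.85 for Csf2rb2 and -1.78 for Flt3. With cells thinned to 2000 UMIs it was 0.71 for Csf1r, 0.67 for Csf2ra, -0.84 for Csf2rb2 and -1.86 for Flt3. Without the 5% of cells with most UMIs it was 0.76 for Csf1r, -1.15 for Csf2rb and -0.84 for Csf2rb2, and over monocytes, macrophages and dendritic cells only 0.71 for Csf1r, -1.08 for Csf2rb and -1.78 for Csf3r. With at least 1500 detected genes per cell it was -1.84 for Csf3r. The other 27 of 42 values stayed within the interval of the main value, those of TMM and DESeq2 scaling among them. Csf2rb lay just past 2-fold, and at -0.99 with at least 1500 detected genes it lay just short of it.

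Within classes and populations, 311 of 338 values stayed within the interval, 25 left it and 2 reversed. The reversed log2 ratios were -0.073 for Csf1r and 0.48 for Csf3r in Neutro without cells carrying C1qa. In macrophages the log2 ratio of Csf2rb went from -0.56 to -0.97 under the mean of per-cell CPM. TMM and DESeq2 scaling moved all Neutro ratios by -0.64 and -0.67, and other populations by at most 0.16. The DC3 value without 1 NTT cell was added after seeing the data. The part of the Csf2rb2 difference from shares was -3.51 CPM with averaged weights and 6.18 CPM with RTT levels. Few of the genes most like each receptor were found again with Spearman correlation, 2 of 5 for Csf1r, Csf2ra and Csf3r, 1 for Csf2rb and Csf2rb2 and 0 for Flt3. With a pseudocount of 1 CPM, 5 were found again for Csf1r and Csf2rb2, 4 for Csf2ra, 3 for Csf2rb, 2 for Csf3r and 0 for Flt3. Of 183 other values 119 moved, most of them shares of cells with a UMI under thinning to 1000 UMIs or no thinning. At 1.5-fold, 5 pathway genes were higher and 19 lower over all cells. No paired analysis was possible because each group held 1 library, and no library could be left out. The cause of these differences was not tested. The 17 NTT cells of TAM_C1q and the small RTT populations limit what their values can show.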
